A study of Mus musculus with 3 samples.

Results

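The genes described here are the TNF superfamily of ligands and receptors, together with adaptors, kinases, subunits and inhibitors of NF-kB signalling. A gene was a member when its symbol starts with Tnfsf or Tnfrsf, or when it is 1 of 20 further genes (Tnf, Lta, Ltb, Ltbr, Cd40, Fas, Rela, Rel, Relb, Nfkb2, Nfkbia, Nfkbib, Nfkbie, Nfkbiz, Tnfaip3, Birc3, Traf1, Traf2, Traf6 and Map3k14). Of 18193 genes with a probe set that carries their symbol alone, 47 met this rule. A filter on dim genes, a mean of at least 0.598 over the 3 arrays, left 38 of the 47 and 11885 genes in all. The 47 are 10 ligands, 22 receptors, 5 adaptors, ligases or kinases, 4 NF-kB subunits, 5 inhibitors and the opposite-strand RNA Tnfsf13os.

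RNA came from mouse follicle-associated epithelium, the sheet that covers lymphoid follicles of the small intestine, and was hybridised to Affymetrix arrays. The RBP-J depleted group has 2 arrays from mice of the genotype VillinCre-Rbpjflox/flox, in which Cre under the Villin promoter of intestinal epithelium deletes Rbpj, whose product carries Notch signals to DNA. The wild type group has 1 array. All samples are untreated, from the C57BL/6 strain. Age, the number of animals behind an array, and whether wild type mice carried Cre or the floxed allele are not given in the sources used here. Nothing in the labels puts the depleted samples in separate animals. The p-values then measure only the spread between these samples, pooled over genes of like intensity, and this spread may be technical.

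TNF ligands bind receptors of the matching family, which recruit TRAF adaptors. In the classical NF-kB pathway, I-kappa-B inhibitors such as the Nfkbia product are degraded and set free dimers that hold RelA or c-Rel. In the alternative pathway, used by the lymphotoxin beta receptor, RANK, the BAFF receptor and CD40, the kinase NIK accumulates, the Nfkb2 precursor is cut and its product enters the nucleus with RelB. In follicle-associated epithelium, RANKL from stromal cells acts on epithelial RANK and induces the antigen-sampling M cells, and osteoprotegerin is a soluble decoy for RANKL.

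Inhibitor and subunit genes of NF-kB are themselves known NF-kB targets, and RBP-J, the factor depleted here, binds a core of similar letters, TGGGAA, so the sequence before the start of 4 genes is shown first. Each window is the 250 bases before the start in RefSeq for GRCm38.p6, 5' to 3' on the strand of the gene. Capitals mark matches, on either strand, to the kB consensus or to TGGGAA. Nfkbie (chr17:45555450-45555699, plus strand) has a kB match at -106 to -97 from the start, Nfkbia (chr12:55492648-55492897, minus strand) at -29 to -20, and Nfkb2 (chr19:46304487-46304736, plus strand) at -39 to -29, where overlapping matches share bases, and at -11 to -2. Tnfrsf14 (chr4:154928078-154928327, minus strand) has TGGGAA at -208 to -203 and no kB match in its window.
Nfkbie: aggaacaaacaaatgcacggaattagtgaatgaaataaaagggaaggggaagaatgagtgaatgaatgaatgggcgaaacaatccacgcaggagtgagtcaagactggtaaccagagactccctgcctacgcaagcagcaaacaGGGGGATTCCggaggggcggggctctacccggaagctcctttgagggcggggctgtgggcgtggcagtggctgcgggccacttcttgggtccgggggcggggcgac
Nfkbia: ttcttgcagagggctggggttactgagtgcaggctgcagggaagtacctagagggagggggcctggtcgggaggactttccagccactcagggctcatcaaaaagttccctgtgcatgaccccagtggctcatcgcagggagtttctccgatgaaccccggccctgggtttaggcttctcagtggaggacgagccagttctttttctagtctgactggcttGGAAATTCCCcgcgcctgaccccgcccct
Nfkb2: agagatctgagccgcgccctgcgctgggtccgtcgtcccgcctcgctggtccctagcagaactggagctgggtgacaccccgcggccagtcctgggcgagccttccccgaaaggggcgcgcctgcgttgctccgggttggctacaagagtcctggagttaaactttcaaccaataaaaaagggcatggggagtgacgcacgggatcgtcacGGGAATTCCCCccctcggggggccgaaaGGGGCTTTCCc
Tnfrsf14: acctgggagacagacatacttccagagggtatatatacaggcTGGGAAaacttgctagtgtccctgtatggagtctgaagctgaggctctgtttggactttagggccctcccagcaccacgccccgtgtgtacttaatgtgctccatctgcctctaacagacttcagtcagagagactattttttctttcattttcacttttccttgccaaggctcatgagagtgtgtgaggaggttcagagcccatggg

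Stretches of 30 bases show the kB match nearest the start, in capitals, before 4 further genes. They are from Tnfrsf9 (chr4:150927947-150927976, plus strand), Rel (chr11:23771041-23771070, minus strand), Ltb (chr17:35194410-35194439, plus strand) and Tnfaip3 (chr10:19015411-19015440, minus strand). In Tnfrsf9 and Rel the capitals cover overlapping kB matches. In Tnfrsf9 the capitals also cover the RBP-J core, read on the opposite strand as TTCCCA, which overlaps the kB match. Tnfaip3 has a further kB match at -125 to -116 and the RBP-J core, on the opposite strand, at -197 to -192, both outside its stretch.
Tnfrsf9: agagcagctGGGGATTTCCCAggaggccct
Rel: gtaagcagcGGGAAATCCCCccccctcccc
Ltb: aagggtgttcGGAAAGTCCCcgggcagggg
Tnfaip3: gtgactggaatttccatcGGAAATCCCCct

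By symbol, 38 of the 47 genes matched the RefSeq table, with 45 windows. A kB match lay in 11 of the 45, in 9 genes (Ltb, Nfkb2, Nfkbia, Nfkbie, Rel, Tnfaip3, Tnfrsf25, Tnfrsf8 and Tnfrsf9), and in 7.25% of all 32851 windows. TGGGAA lay in 7 of the 45 (Fas, Lta, Nfkbib, Tnfaip3, Tnfrsf14, Tnfrsf23 and Tnfrsf9) and in 21.6% of all windows. A match describes letters and is no evidence of binding.

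Intensities below are multiples of the array's median over all probe sets, and levels are not set between genes. Differences are log2(value + 0.248), depleted minus wild type. Over all genes tested their median was -0.0026 for the first depleted array, with 0.22 for the second as a general shift. Rbpj itself read 2.72 and 5.74 in the depleted arrays, against 7.15 in wild type, and did not pass the test (log2 difference -0.81, SE 0.49, limma adjusted p = 0.9997). A dimmer Rbpj probe set was also lower in both, at 4.14 and 4.92, against 5.37 in wild type. Another had wild type in between, at 2.30 and 4.21 in the depleted arrays, against 3.79 in wild type. Where its probe sets lie relative to the deletion is not given, so they may check nothing. Epithelial markers, 11 of 11 with a probe set and none at 0, had summed intensities of 949 and 1106 in the depleted arrays, against 854 in wild type. Their median log2 differences were 0.17 and 0.39 as deposited, and 0.085 and 0.013 with quantile normalization. They were 0.22 and 0.20 with a common 75th percentile, and 0.21 and 0.19 with a common median. The value of the second array thus depended on the scaling. RNA quality, read as the 3' to 5' ratio of Gapdh controls, was 2.28 and 1.54 in the depleted arrays, against 1.83 in wild type. Sex-linked genes, chosen after their values were seen, also split the arrays: Xist read 42.8 and 43.4 in the depleted arrays, against 0.297 in wild type, and Eif2s3y 0.122 and 0.0560, against 20.6 in wild type. Genotype and this split cannot be told apart.

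No TNF superfamily or NF-kB gene passed the test. Of the 38 genes tested, 0 had a limma adjusted p under 0.05 (0.0841% of all genes tested) and 0 an unadjusted p under 0.05 (2.27% of all). The wild type group has no spread of its own and is given that of the depleted arrays, which leave 1 residual degree of freedom. The fit pools this spread over genes along intensity, with a weight of 600 degrees of freedom. Each SE therefore follows a gene's intensity far more than its own spread. On simulated arrays of 11885 genes, limma called 5 of 50 genes with a log2 difference of 1, 37 of 50 with 2 and 50 of 50 with 3, and also called 14 of 11685 unchanged genes. Without a test, 0 of the 38 lay 2-fold or more from wild type on the same side in both depleted arrays (1.33% of all), and 1, Nfkbie, lay 1.5-fold or more (6.76% of all). In the first depleted array alone, 0 of the 38 were 2-fold higher (3.19% of all) and 1, Tnfrsf23, was 2-fold lower (3.23%). In the second alone, 1, Tnfrsf9, was 2-fold higher (3.56%) and 1, Map3k14, was 2-fold lower (1.64%).

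Of the 38 genes, 19 read higher in both depleted arrays than in wild type (39.0% of all genes tested) and 6 lower in both (19.5%). The wild type array was the lowest of the 3 for those 19, and the second depleted array the highest for 26 (55.1% of all). Other scalings moved this split. Quantile normalization gave 17 higher and 13 lower in both (31.0% and 29.4% of all), a common 75th percentile 19 and 10 (34.3% and 26.0%), and a common median over the genes tested 18 and 11 (33.1% and 27.1%). In every scaling, 17 genes were higher in both (27.7% of all) and 6 lower in both (18.3%); Ltb and Fas left the higher set. The first depleted array gave the 38 a median log2 difference of 0.069 (-0.0026 over all genes tested), and the second gave 0.26 (0.22 over all). In the second array this median was 0.10 after quantile normalization, 0.087 with the common 75th percentile and 0.071 with the common median.

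**Figure D1:**
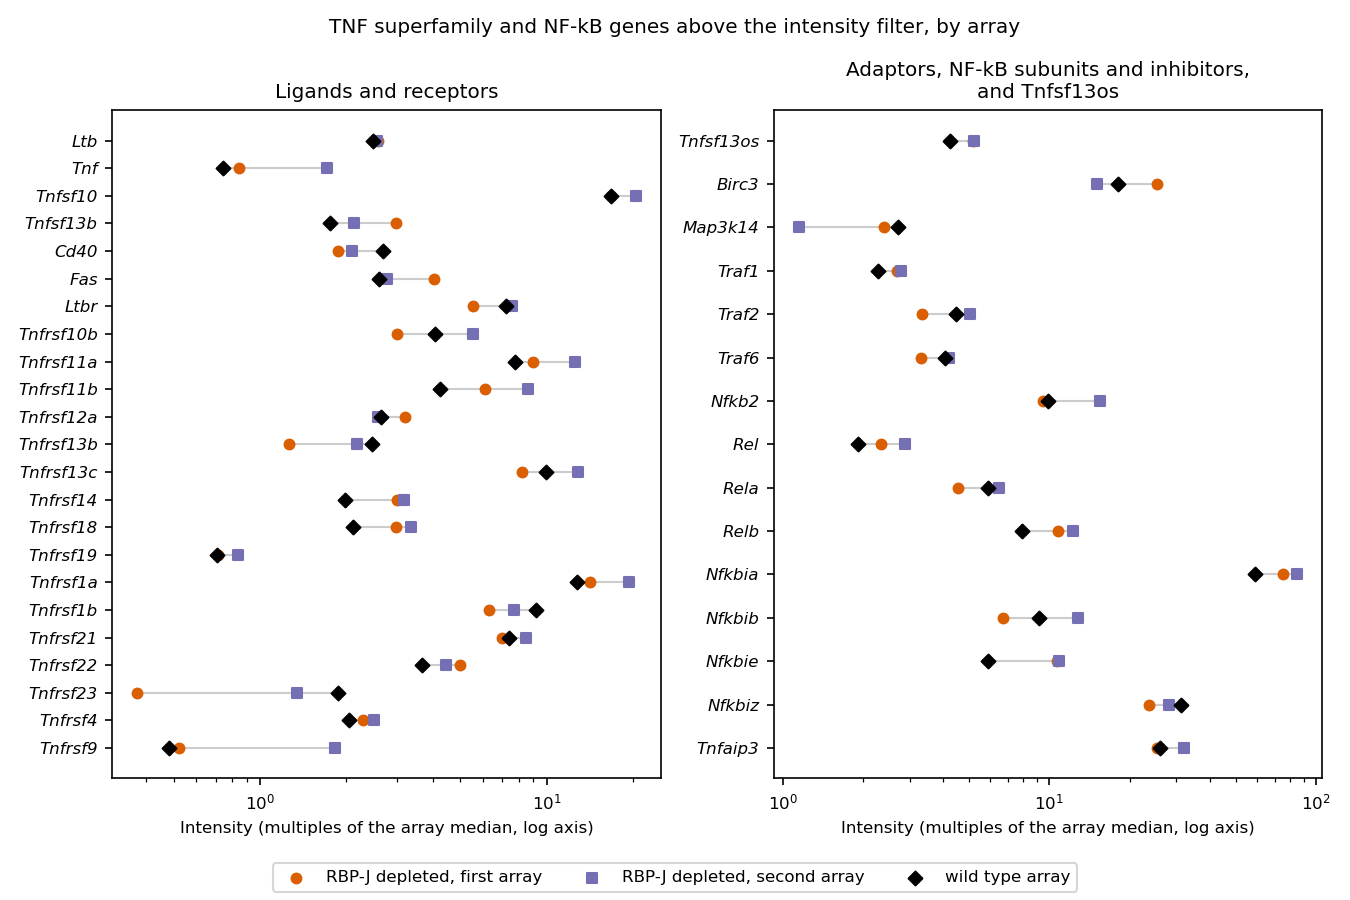
Intensity of each tested gene on the 3 arrays, in multiples of the array median on a log axis, with the RBP-J depleted arrays as orange circles (first) and purple squares (second) and the wild type array as black diamonds. For Nfkbie the depleted arrays lie together at 10.7 and 10.9, with wild type at 5.90.

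Among the ligands, 4 of 10 passed the filter, and 3 of these 4 read higher in both depleted arrays (39.0% of all genes tested). Tnf, the founding inflammatory cytokine of the family, read 0.845 and 1.71 in the depleted arrays, against 0.745 in wild type (log2 difference 0.56, SE 0.59). The second depleted array alone stands apart. Tnfsf13b, the B cell survival factor BAFF, read 2.99 and 2.13 in the depleted arrays, against 1.75 in wild type (log2 difference 0.47, SE 0.53). Its 2 dimmer probe sets, under the filter, did not share that order, at 0.440 and 0.725 in the depleted arrays, against 0.568 in wild type, and at 0.117 and 0.312, against 0.411 in wild type. Ltb, the membrane-bound lymphotoxin chain, was nearly level at 2.59 and 2.57 in the depleted arrays, against 2.48 in wild type. Tnfsf10, the death ligand TRAIL, read 16.7 and 20.4 in the depleted arrays, against 16.8 in wild type, so only the second depleted array lies above wild type, as in both other probe sets. Tnfsf13os, transcribed opposite to a ligand gene, read 5.19 and 5.22 in the depleted arrays, against 4.23 in wild type, with the depleted arrays close together (log2 difference 0.28, SE 0.49).

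The 6 other ligands lie under the filter, at levels that carry no usable fold. Tnfsf11, the gene of RANKL, read 0.218 and 0.286 in the depleted arrays, against 0.168 in wild type, and its other probe set 0.0200 and 0.0420, against 0.0170 in wild type. RANKL is a product of stromal cells beneath this epithelium. Fibroblast and lymphoid stroma markers, 10 of 10 with a probe set, 4 of them above the filter and none at 0, summed to 15.7 and 23.9 in the depleted arrays, against 15.7 in wild type. Most of each sum came from 1 gene of the list, so the sums say little about the others. Pdpn, for example, read 0.997 and 1.29 in the depleted arrays, against 0.517 in wild type. Of the 4 tested, 2 read higher and 0 lower in both depleted arrays (39.0% and 19.5% of all genes tested). The part of these markers in the Tnfsf11 signal was not tested. Lta, the secreted lymphotoxin, read 0.451 and 0.599 in the depleted arrays, against 0.281 in wild type, and Tnfsf9, ligand of the Tnfrsf9 receptor, 0.597 and 0.519, against 0.144 in wild type. Tnfsf14, Tnfsf8 and Tnfsf4, ligands of lymphocyte receptors, lay between 0.0520 and 0.332 in the depleted arrays, against 0.0470 to 0.102 in wild type.

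Of the 19 receptors tested, 10 read higher in both depleted arrays (39.0% of all genes tested), 4 lower in both (19.5%), and 5 had wild type in between. Tnfrsf11b, the gene of osteoprotegerin, read 6.11 and 8.58 in the depleted arrays, against 4.25 in wild type (mean 7.35 ± 1.74 in the depleted arrays, SD, n = 2; log2 difference 0.74, SE 0.49). Both depleted arrays lie above wild type, also in the 3 other scalings. Its dimmer probe set did not show this, at 1.34 and 1.55 in the depleted arrays, against 1.57 in wild type. Tnfrsf11a, the gene of RANK, read 8.98 and 12.6 in the depleted arrays, against 7.74 in wild type (log2 difference 0.45, SE 0.47). Its other probe set ran the opposite way, at 8.21 and 6.10 in the depleted arrays, against 12.2 in wild type, and the mean of both probe sets gave a log2 difference of -0.16. The direction for RANK therefore depends on the probe set.

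The receptors for TNF read on different sides of wild type. Tnfrsf1a, the widely expressed receptor with a death domain, read 14.2 and 19.3 in the depleted arrays, against 12.8 in wild type (log2 difference 0.36, SE 0.46). Tnfrsf1b, which lacks a death domain and is prominent on lymphocytes, read 6.28 and 7.71 in the depleted arrays, against 9.18 in wild type (log2 difference -0.39, SE 0.48). Its other probe set had the same order, at 1.31 and 1.78 in the depleted arrays, against 2.37 in wild type. Each difference is smaller than its SE, and the difference between these receptors was not tested. Ltbr, the lymphotoxin beta receptor needed for Peyer's patches to form, read 5.55 and 7.61 in the depleted arrays, against 7.20 in wild type, which lies between the depleted arrays.

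Receptors of B cells were read beside B cell markers. Tnfrsf13b, a receptor for BAFF and APRIL, read 1.26 and 2.19 in the depleted arrays, against 2.45 in wild type. Cd40, through which T cells help B cells, read 1.87 and 2.10 in the depleted arrays, against 2.69 in wild type. Both were lower in both depleted arrays, though a second Cd40 probe set read 2.86 and 1.57 in the depleted arrays, against 2.07 in wild type, with wild type in the middle. Tnfrsf13c, the BAFF receptor, read 8.18 and 12.9 in the depleted arrays, against 9.98 in wild type, and Tnfrsf17, the plasma cell receptor BCMA, lay under the filter at 0.0690 and 0.246, against 0.0490 in wild type. B cell markers, 12 of 13 with a probe set and none at 0, summed to 26.2 and 58.2 in the depleted arrays, against 56.3 in wild type. Of the 12, 6 were lower and 1 higher in both depleted arrays (19.5% and 39.0% of all genes tested). Their median log2 differences were -0.90 and -0.076 as deposited, -0.89 and -0.20 with quantile normalization, -0.85 and -0.25 with a common 75th percentile, -0.86 and -0.27 with a common median. Among them Ms4a1, the gene of CD20, read 4.12 and 6.73 in the depleted arrays, against 11.1 in wild type, and Cr2, a complement receptor, 1.04 and 0.949, against 2.01 in wild type. Their part in the values of these receptors was not tested, and in bulk tissue fewer cells of a type and less RNA per cell cannot be told apart.

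Tnfrsf14, Tnfrsf18, Tnfrsf4 and Tnfrsf9, whose products can costimulate T cells, read higher in both depleted arrays. Of the 19 receptors tested, 10 did so, as did 39.0% of all genes tested. Not every receptor of lymphocytes shared this. Tnfrsf1b, given above, was lower in both, and Tnfrsf25, under the filter, had wild type in between. Tnfrsf14, the HVEM receptor that binds LIGHT and BTLA, read 3.01 and 3.18 in the depleted arrays, against 1.98 in wild type (log2 difference 0.59, SE 0.52). Tnfrsf18, known as GITR and abundant on regulatory T cells, read 2.99 and 3.35 in the depleted arrays, against 2.11 in wild type (log2 difference 0.54, SE 0.51). For these genes the depleted arrays form a pair above wild type, by about 1 SE. Tnfrsf4, the neighbour of Tnfrsf18 on chromosome 4, read 2.30 and 2.497 in the depleted arrays, against 2.04 in wild type. Tnfrsf9, induced on activated T cells, read 0.523 and 1.83 in the depleted arrays, against 0.480 in wild type, so that the second depleted array alone stood apart. Another Tnfrsf9 probe set read 1.04 and 0.880 in the depleted arrays, against 0.718 in wild type, higher in both but without that gap. A further one, under the filter, had wild type in between, at 0.177 and 0.528 in the depleted arrays, against 0.214 in wild type. T cell markers, 12 of 13 with a probe set and none at 0, summed to 54.8 and 73.4 in the depleted arrays, against 61.6 in wild type. Gzma alone gave 31.2 and 35.6 of these sums, against 34.4 in wild type. Of the 11 tested, 3 read higher and 1 lower in both depleted arrays (39.0% and 19.5% of all genes tested). Their median log2 differences were -0.057 and 0.45 as deposited. The part of these markers in the values of the receptors was not tested.

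Death and decoy receptors showed no common direction. Fas, which triggers apoptosis, read 4.06 and 2.77 in the depleted arrays, against 2.61 in wild type. Tnfrsf10b, the mouse death receptor for TRAIL, read 3.02 and 5.56 in the depleted arrays, against 4.09 in wild type, which lies in the middle. Tnfrsf22 and Tnfrsf23, neighbours on chromosome 7, encode decoy receptors of TRAIL in the mouse. Tnfrsf22 read 5.01 and 4.45 in the depleted arrays, against 3.67 in wild type, and Tnfrsf23 0.373 and 1.35, against 1.87 in wild type. Of the 38 genes Tnfrsf23 had the largest difference (log2 difference -1.09, SE 0.59, limma adjusted p = 0.9997, unadjusted p = 0.0645), most of it from the first depleted array, at -1.77, with -0.41 in the second. Its value in the first array is close to the pseudocount, which bounds the fold there.

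The other receptors had small or dim signals. Tnfrsf12a, the TWEAK receptor, read 3.20 and 2.59 in the depleted arrays, against 2.63 in wild type, and its other probe set 2.91 and 2.90, against 2.24 in wild type. Tnfrsf19 read 0.712 and 0.837 in the depleted arrays, against 0.707 in wild type, and another probe set 0.517 and 0.898, against 0.691 in wild type. Tnfrsf21, known as death receptor DR6, read 7.01 and 8.47 in the depleted arrays, against 7.40 in wild type, while its other probe set read 11.4 and 4.92, against 5.96 in wild type. In Tnfrsf21 wild type lies in the middle in both probe sets, and the depleted arrays swap places. Tnfrsf8, the gene of CD30, and Tnfrsf25, a death receptor of T cells, lay under the filter, at 0.566 and 0.398 in the depleted arrays, against 0.0820 in wild type, and at 0.0580 and 0.395, against 0.120 in wild type.

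**Figure D2:**
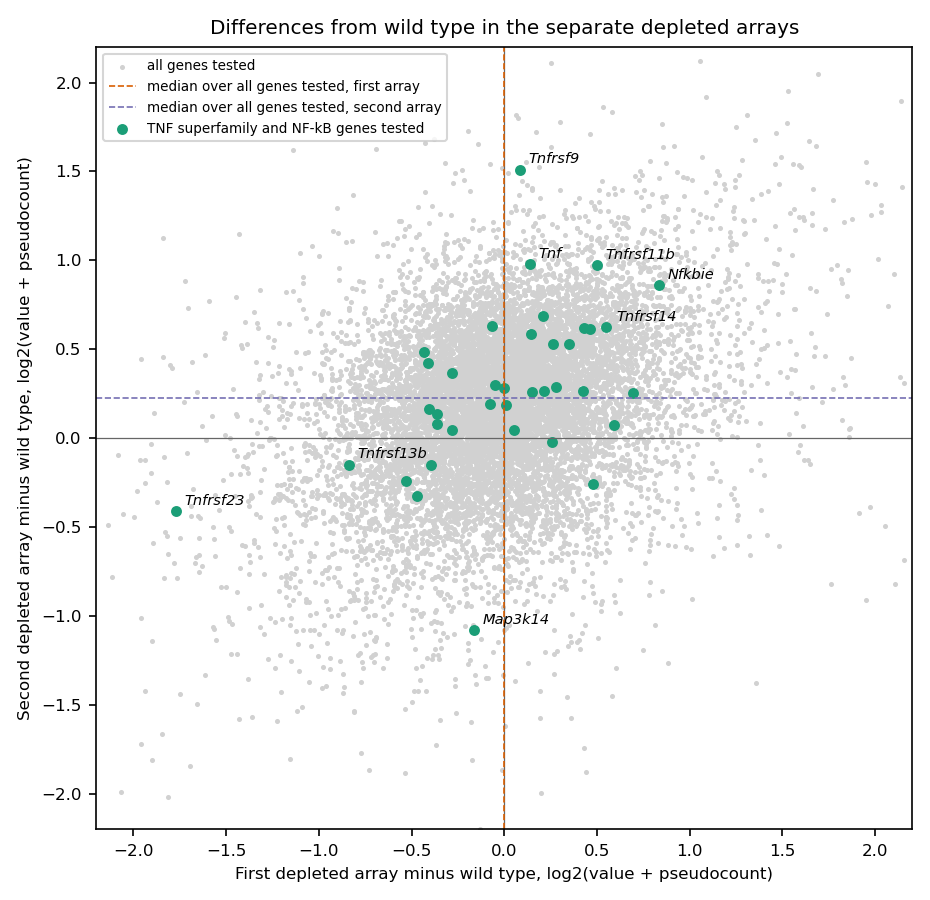
Log2 difference from wild type in the first depleted array (x axis) and the second (y axis) for the 38 genes (green) and all genes tested (grey). Dashed lines are medians over all genes tested, and 45 genes beyond 2.2 on either axis are not drawn; Tnfrsf23, Tnfrsf9 and Map3k14 lie far from 0 in 1 depleted array, and Nfkbie lies at 0.83 and 0.86.

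Adaptors, the ligase and the kinase had no common direction, with 1 of 5 higher and 1 of 5 lower in both depleted arrays (39.0% and 19.5% of all genes tested). Traf1, an adaptor that NF-kB induces, read 2.68 and 2.78 in the depleted arrays, against 2.28 in wild type, and its dimmer probe set 1.05 and 1.78, against 1.94 in wild type, on the other side. Traf2, an adaptor of TNF receptors, read 3.32 and 5.05 in the depleted arrays, against 4.49 in wild type, and Traf6, an adaptor of RANK and Toll-like receptors, 3.30 and 4.21, against 4.07 in wild type. In both, wild type lies in the middle, but a Traf6 probe set of nearly the same brightness read 2.51 and 4.12 in the depleted arrays, against 4.73 in wild type, which is the highest array there. Birc3, a ubiquitin ligase that keeps NIK low, read 25.3 and 15.1 in the depleted arrays, against 18.1 in wild type, so that the depleted arrays lie on opposite sides, as in its other probe set. Map3k14, the gene of NIK, read 2.40 and 1.15 in the depleted arrays, against 2.71 in wild type (log2 difference -0.62, SE 0.53). That value came from the second depleted array, at -1.08, with -0.16 in the first, and a second probe set was level at 1.51 and 1.496 in the depleted arrays, against 1.52 in wild type.

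Subunits of NF-kB read higher in both depleted arrays in 2 of 4 cases (39.0% of all genes tested). Relb, the subunit of the alternative pathway, read 10.8 and 12.3 in the depleted arrays, against 7.92 in wild type (mean 11.5 ± 1.08 in the depleted arrays, SD, n = 2; log2 difference 0.52, SE 0.47). Rel, the lymphoid subunit c-Rel, read 2.34 and 2.87 in the depleted arrays, against 1.91 in wild type (log2 difference 0.40, SE 0.52). Relb and Rel kept this side in both depleted arrays in the 3 other scalings. Nfkb2, the partner of RelB, read 9.44 and 15.5 in the depleted arrays, against 9.89 in wild type, and its other probe set 8.83 and 5.79, against 5.83 in wild type. The brighter probe set thus places the excess in the second depleted array and the dimmer in the first. Rela, the widely expressed subunit, read 4.54 and 6.503 in the depleted arrays, against 5.90 in wild type, which lies in the middle.

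Of the 5 inhibitors, 2 read higher in both depleted arrays and 1 lower in both (39.0% and 19.5% of all genes tested). The single tested gene past 1.5-fold in both depleted arrays, 1 of 38 (6.76% of all), is an inhibitor. Nfkbie, the gene of I-kappa-B epsilon, whose promoter window is shown above, read 10.7 and 10.9 in the depleted arrays, against 5.90 in wild type (mean 10.8 ± 0.148 in the depleted arrays, SD, n = 2; log2 difference 0.85, SE 0.48). It did not pass the test (limma adjusted p = 0.9997, unadjusted p = 0.0746), although the depleted arrays lie close together and apart from wild type. That closeness hardly enters the SE, which follows intensity. The other Nfkbie probe set did not have both depleted arrays apart from wild type, at 5.18 and 7.81, against 7.68 in wild type. Averaging both Nfkbie probe sets gave a log2 difference of 0.29. Nfkbia, the rapid feedback inhibitor, read 75.1 and 85.3 in the depleted arrays, against 59.0 in wild type (log2 difference 0.44, SE 0.38). Of its 4 other probe sets, 2 were also higher in both depleted arrays, at 61.6 and 62.9, against 49.6 in wild type and 70.9 and 67.7, against 55.4 in wild type, and the others had wild type in the middle. Nfkbiz, an inducible nuclear member, read 23.6 and 28.0 in the depleted arrays, against 31.2 in wild type, lower in both depleted arrays, as in 1 other probe set, at 2.72 and 3.30, against 5.37 in wild type. The remaining Nfkbiz probe set had wild type in the middle, at 5.36 and 2.65 in the depleted arrays, against 4.43 in wild type. Tnfaip3, the ubiquitin-editing inhibitor, read 25.3 and 32.1 in the depleted arrays, against 26.1 in wild type, and Nfkbib, the gene of I-kappa-B beta, 6.70 and 12.9, against 9.13 in wild type. In both, wild type lies between the depleted arrays. A dimmer Tnfaip3 probe set read higher in both depleted arrays, at 1.69 and 1.35 in the depleted arrays, against 1.09 in wild type.

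Of the 47 genes, 25 have several probe sets, and 26 of the 38 further probe sets pass the filter. For 15 of these 26 the brightest probe set of the gene lay on 1 side of wild type in both depleted arrays. Of these 15, 6 lay on that side in both arrays too, in Nfkbia, Nfkbiz, Tnfrsf1b, Tnfrsf9 and Map3k14, and 9 did not.

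**Figure D3:**
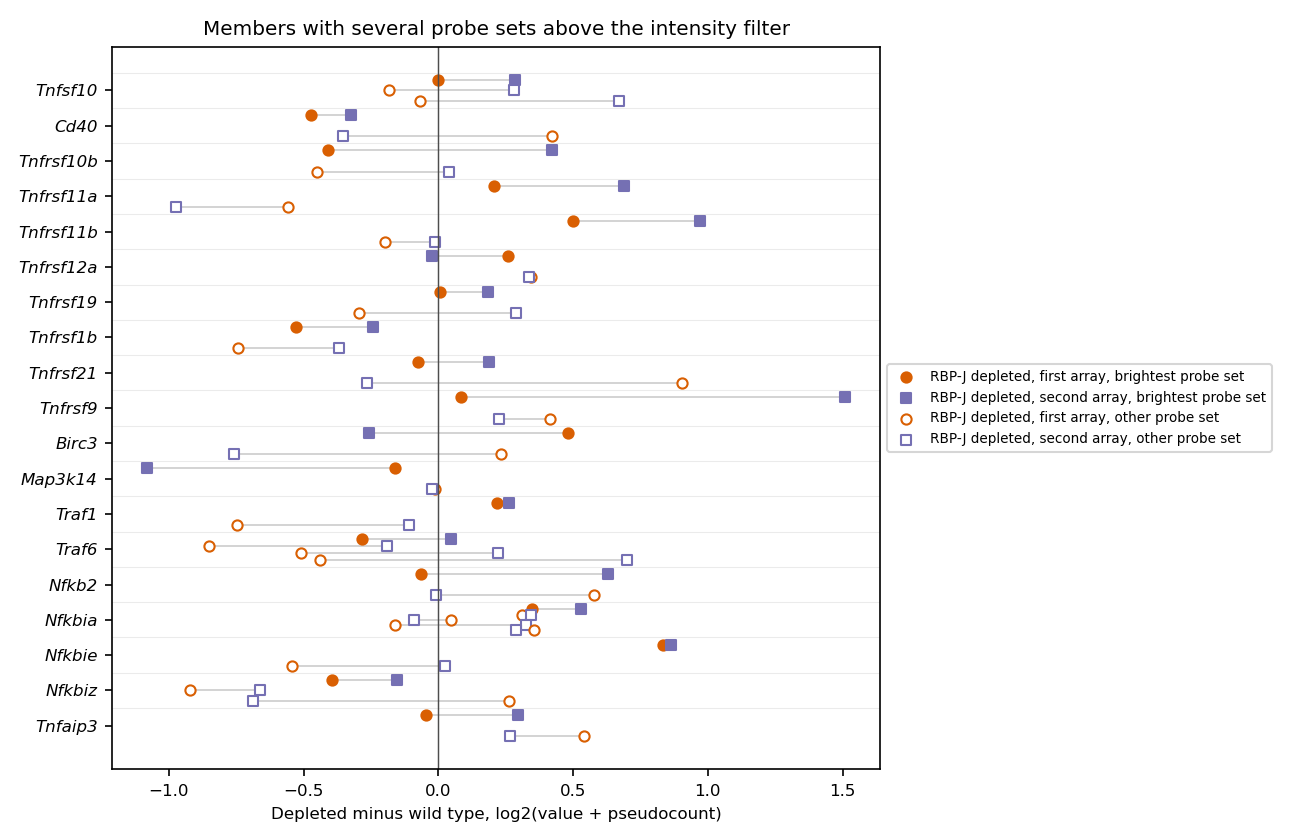
Log2 difference from wild type for the brightest probe set (filled) and other probe sets (open) of genes with several probe sets above the filter, first depleted array as orange circles and second as purple squares. Tnfrsf1b lies below 0 throughout, while the probe sets of Tnfrsf11a lie on opposite sides of 0.

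Further genes of the pathway were read from a list of 36, of which 29 were tested. Of the 29, 0 passed the limma test, 14 read higher in both depleted arrays and 5 lower in both (39.0% and 19.5% of all genes tested). Tradd, the adaptor of the death-domain TNF receptor, read 16.9 and 15.8 in the depleted arrays, against 7.86 in wild type (log2 difference 1.03, SE 0.46, limma adjusted p = 0.9997). Both depleted arrays lie above wild type, and so do those of its other probe sets, at 3.18 and 3.60, against 2.42 in wild type and 0.493 and 1.23, against 0.487 in wild type. Ikbke, an I-kappa-B kinase relative active in innate immunity, read 5.77 and 5.41 in the depleted arrays, against 3.12 in wild type (log2 difference 0.79, SE 0.49). Tbk1, a related kinase, read 21.97 and 20.4 in the depleted arrays, against 15.5 in wild type, and Fadd, an adaptor of death receptors, 9.22 and 11.5, against 7.04 in wild type. A second Fadd probe set had wild type in the middle, at 1.41 and 3.07 in the depleted arrays, against 2.13 in wild type. Of 9 superfamily members with other symbols, 3 were tested. Cd27, a lymphocyte receptor, read 1.84 and 1.57 in the depleted arrays, against 1.04 in wild type, and Ngfr, the neurotrophin receptor of the family, 1.39 and 1.06, against 0.546 in wild type, with 2 other probe sets on the other side. Relt, a further receptor of the family, read 1.12 and 1.07 in the depleted arrays, against 1.22 in wild type.

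Genes that NF-kB induces lay on both sides of wild type. Of a list of 30, 18 were tested, 0 passed the limma test, and 6 read higher and 6 lower in both depleted arrays, with 39.0% and 19.5% over all genes tested. Their median log2 differences, first array and then second, were -0.16 and 0.34 as deposited, -0.18 and 0.041 with quantile normalization, -0.12 and 0.15 with a common 75th percentile, -0.13 and 0.13 with a common median, so the value of the second array depended on the scaling. Nos2, inducible nitric oxide synthase, read 8.82 and 9.31 in the depleted arrays, against 15.0 in wild type (log2 difference -0.71, SE 0.47). The neutrophil chemokine Cxcl1 read 0.444 and 0.671 in the depleted arrays, against 1.32 in wild type, and Cxcl2 0.320 and 0.959, against 1.53 in wild type. The monocyte chemokine Ccl2 read 1.99 and 1.502 in the depleted arrays, against 1.04 in wild type, on the other side.

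Genes that RANKL induces in M cells were read beside Tnfrsf11a and Tnfrsf11b. All 17 were tested, 0 passed the limma test, and 10 read higher and 1 lower in both depleted arrays, where 39.0% and 19.5% of all genes tested did so, as did 9 and 1 of the 11 epithelial markers. The medians of the M cell list were 0.14 and 0.52 as deposited, 0.053 and 0.14 with quantile normalization, 0.19 and 0.32 with a common 75th percentile, 0.18 and 0.31 with a common median. Marcksl1, an actin regulator, read 84.9 and 94.6 in the depleted arrays, against 60.4 in wild type, and its 3 other probe sets were also higher in both. Ccl6, a chemokine, read 53.9 and 33.0 in the depleted arrays, against 21.4 in wild type (log2 difference 0.97, SE 0.42), and its other probe set 58.8 and 21.0, against 19.8 in wild type. Pglyrp1, which binds bacterial peptidoglycan, read 104 and 134 in the depleted arrays, against 82.7 in wild type, and the ubiquitin-like Ubd 61.6 and 74.9, against 52.4 in wild type. Gp2, the bacterial receptor of mature M cells, read 9.90 and 32.6 in the depleted arrays, against 19.8 in wild type, and Ccl20, which draws lymphocytes to the follicle, 45.2 and 74.6, against 49.9 in wild type. For Gp2 and Ccl20 wild type lies between the depleted arrays.

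**Figure D4:**
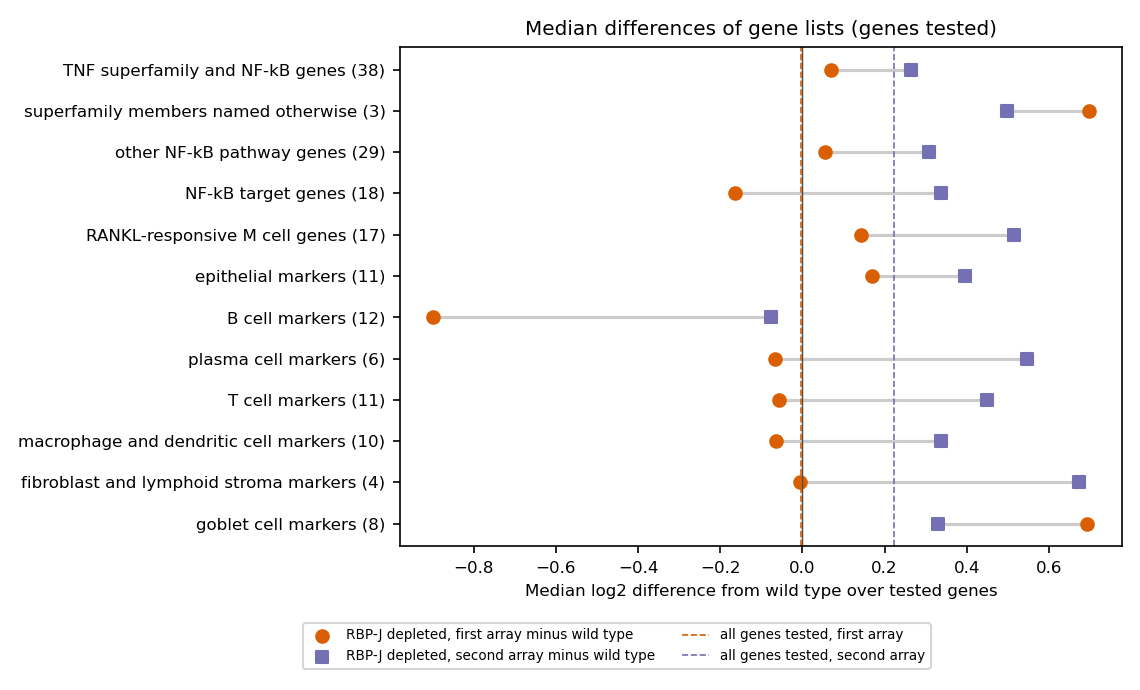
Median log2 difference from wild type over the tested genes of each list (their number in brackets), in the first depleted array (orange circles) and the second (purple squares), with dashed lines for all genes tested. The TNF superfamily and NF-kB genes lie at 0.069 and 0.26, beside the dashed lines at -0.0026 and 0.22, and the B cell markers at -0.90 and -0.076.

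Other cell types that could hold these transcripts were read from their markers. Macrophage and dendritic cell markers, 11 of 11 with a probe set and none at 0, summed to 78.6 and 102 in the depleted arrays, against 83.7 in wild type. Of the 10 tested, 3 read higher and 2 lower in both depleted arrays (39.0% and 19.5% of all genes tested). Cd68, a lysosomal protein of macrophages, read 2.11 and 2.07 in the depleted arrays, against 1.19 in wild type. Fcgr3 lay on the other side, at 0.665 and 0.415 in the depleted arrays, against 0.805 in wild type. Plasma cell markers, 6 of 6 with a probe set and none at 0, summed to 94.9 and 124 in the depleted arrays, against 91.7 in wild type. Only 1 of the 6 read higher in both depleted arrays and 1 lower in both (39.0% and 19.5% of all genes tested). The median log2 differences of the 6 were -0.068 and 0.55, so the sums show no common direction of the markers. Goblet cell markers, 8 of 8 with a probe set and none at 0, summed to 932 and 777 in the depleted arrays, against 585 in wild type, with the secreted Tff3 at 122 and 88.4, against 52.8 in wild type. Their median log2 differences were 0.69 and 0.33 as deposited, 0.59 and -0.040 with quantile normalization, 0.74 and 0.14 with a common 75th percentile, 0.73 and 0.12 with a common median. The value of the second array thus depended on the scaling. No gene of these lists passed the limma test, and their part in the values of the TNF superfamily and NF-kB genes was not tested.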

How the data were processed

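RNA of 3 samples was measured on Affymetrix arrays. The deposited values are linear intensities from MAS5, per the submitters' processing notes, with a median of 1 over the 45101 probe sets of each array. Probe sets got their genes from the platform annotation: 34945 had 1 symbol, 932 had several, 9160 had none and 64 are controls, and only those with 1 symbol entered gene results. For each gene the probe set of highest mean was kept. The filter of 0.598 is the 40th percentile over probe sets, and the pseudocount of 0.248 the 25th percentile of all values, which shrinks the folds of dim genes. Depleted arrays were compared with wild type in R 4.3.3 with limma 3.58.1 (lmFit, then eBayes with an intensity trend), tested on simulated data, with Benjamini-Hochberg adjustment over all 11885 genes and a threshold of 0.05.

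The members and lists were chosen with earlier results of these data known. By the rule for named genes, any member may be named. Values by array are given for members 1.5-fold or more from wild type on 1 side in both depleted arrays and for a set of members chosen whatever their values. From each other list up to 4 genes are taken, by the size of the lesser of both differences, besides Rbpj, Gp2, Ccl20 and Epcam; values of further members are descriptions. Epcam, an epithelial adhesion protein, read 129 and 153 in the depleted arrays, against 109 in wild type. A dimmer Epcam probe set lay on the other side, at 14.7 and 13.4 in the depleted arrays, against 15.3 in wild type. Alternatives were pseudocounts of 1 and 5, no filter or one at the 60th percentile, 3 scalings, averaged probe sets, eBayes without trend, and each depleted array alone.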

Additional observations from a re-analysis of the deposited data

How the results depend on the processing

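None of the genes passed the test under any of the 9 alternatives that kept all arrays. An unadjusted p under 0.05 came up for Tnfrsf8 with no filter, and for Tnfrsf23 with averaged probe sets and with eBayes without trend. The count of genes 2-fold or more from wild type in both depleted arrays was 0 in the 8 alternatives run on it with all arrays, and 1 to 2 in a single depleted array. The median log2 difference of the genes tested, 0.13, lay between 0.049 and 0.26 over its alternatives, and between 0.069 and 0.26 in single depleted arrays. Over all genes, 10 passed as reported, but 1 with no filter, 3 with quantile normalization, 4 with a common 75th percentile, 4 with a common median and 6 with the stricter filter. That count over all genes was higher with a pseudocount of 5 and with averaged probe sets. It was unchanged with eBayes without trend, and lower with a pseudocount of 1. The pooling weight of 600 degrees of freedom became infinite with pseudocounts of 1 and 5. In the other alternatives it ranged from 6.54 with no filter to 57.4 with the stricter filter. With all arrays kept, single genes changed direction in 17 of 242 values. In single depleted arrays, 10 of 54 values lay on the other side, with ranges of log2 differences of -0.26 to 0.48 for Birc3, -0.36 to 0.077 for Ltbr, -0.066 to 0.63 for Nfkb2, -0.36 to 0.13 for Rela, -0.047 to 0.30 for Tnfaip3, -0.41 to 0.42 for Tnfrsf10b, -0.28 to 0.36 for Tnfrsf13c, -0.0011 to 0.28 for Tnfsf10, -0.41 to 0.16 for Traf2 and -0.28 to 0.046 for Traf6. Quantile normalization gave log2 differences of -0.062 for Birc3, -0.060 for Tnfaip3, -0.072 for Tnfrsf10b, -0.089 for Tnfrsf13c and -0.027 for Tnfsf10. A common 75th percentile gave -0.015 for Ltb, -0.064 for Tnfrsf10b and -0.029 for Tnfrsf13c, and a common median -0.027 for Ltb, -0.077 for Tnfrsf10b and -0.042 for Tnfrsf13c. Averaged probe sets gave -0.076 for Birc3, -0.10 for Tnfrsf10b, -0.16 for Tnfrsf11a, -0.022 for Tnfsf13b, -0.095 for Traf1 and 0.035 for Traf6. The cause was not tested. No paired analysis was possible because the wild type group has 1 array.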

Other observations

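Probe sets shared by several genes stayed out of the gene results. One shared by Tnfrsf22 and Tnfrsf23 read 2.14 and 1.53 in the depleted arrays, against 0.414 in wild type, with log2 differences of 1.85 and 1.43. Of the 3 probe sets that carry only the symbol Tnfrsf22, the brightest read higher in both depleted arrays. So did another, under the filter, at 0.228 and 0.504 in the depleted arrays, against 0.0840 in wild type. The dimmest, far under the filter, did not. The probe set that carries only the symbol Tnfrsf23 read lower in both. A probe set shared by Tnfsf13, Tnfsf12 and their joint transcript Tnfsfm13 read 18.2 and 13.4 in the depleted arrays, against 13.0 in wild type, and one shared by Tnfsf12 and Tnfsfm13 read 2.39 and 1.52, against 1.42 in wild type. These were not tested.

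Several of the genes are neighbours among protein-coding genes in RefSeq. Ltb, Tnf and Lta lie side by side on chromosome 17, and wild type was the lowest array for each, by little for Ltb, whose order changed with the scaling. Tnfrsf1b and Tnfrsf8, neighbours on chromosome 4, read on opposite sides of wild type, Tnfrsf8 under the filter.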
